A study of Mus musculus with 15 samples.

Results

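The Runx1 line consists of NIH3T3 mouse fibroblasts, which are immortalised, and carries mouse Runx1 in the retroviral vector pBabe-puro and expresses it constitutively. By the sample titles, it was set against NIH3T3 cells that had the empty vector and no tamoxifen. Each group gave 2 arrays, so the comparison used 4 of the 15 arrays of the series. The title of the study names adhesion and survival as the processes whose control by Runx was in question. The other arrays held the empty vector with 4-hydroxytamoxifen (4-OHT, 2 arrays), lines with mouse Runx2 or mouse Runx3 (2 arrays each), a line with human RUNX1 (1 array), and RUNX1-ER, a tamoxifen-inducible human RUNX1, uninduced or induced with 4-OHT (2 arrays each). All cells were transduced with pBabe-puro, grown to confluence for 7 days, and given 0.2% ethanol, with or without 4-OHT, for 24 hours. For the Runx1 line the labels do not say which of these it received, nor whether it was a pool of transduced cells or 1 clone, nor how many transductions were made, so that effects of the inserted gene and of the single line cannot be told apart. The replicates are called biological in the titles, without a source for each, and the spread between these arrays is all that the p-values measure.

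Runx1 belongs to a small family of transcription factors that bind DNA through the Runt domain, together with the partner Cbfb. Runx1 is best known as a regulator of blood cell formation, Runx2 of bone and Runx3 of neurons and lymphocytes. Runx proteins activate some genes and, through corepressors of the Groucho/TLE family, repress others.

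Levels are the deposited log2 values of the brightest probe set of each of 18193 genes, and a difference of 1 on this scale is 2-fold. Array medians over all probe sets ranged from 3.69 to 3.75 in the series. Differences between replicates had an SD over genes of 0.162 in vector cells and 0.183 in the Runx1 line, and every one of these 4 arrays correlated best with its own replicate. Of 12 fibroblast markers, 11 in vector cells and 10 in the Runx1 line lay above the median gene, and the level of the markers summed on each array was 15.51 to 15.53 in vector cells and 15.45 to 15.49 in the Runx1 line. Of these, Pdgfrb was higher by 1.15, and Dcn and Pdgfra were lower, at −0.84 and −0.64 (limma adjusted p = 0.00181, 0.0124 and 0.00384). Dcn missed the threshold when any 1 of the 4 arrays was left out (adjusted p from 0.0506 to 0.128), and Pdgfra did so when vector replicate 1 was dropped (adjusted p = 0.0514). No marker passed among 9 of macrophages and blood cells (summed level 7.13 to 7.32 in vector cells and 7.04 to 7.06 in the Runx1 line), 9 of epithelia (7.12 to 7.14 and 7.16 to 7.18), 8 of endothelium (6.29 to 6.35 and 6.30 to 6.38), 8 of muscle (7.06 to 7.14 and 7.05 to 7.20) or 5 of adipocytes (5.76 to 5.82 and 5.82 to 5.84), and in limma 1, 0, 0, 0 and 0 of them had an unadjusted p under 0.05. In a culture, fewer cells that express a gene and less RNA of it per cell cannot be told apart.

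Mouse Runx1 itself had the largest difference. Its brightest probe set read 4.56 and 4.75 in vector cells and 9.11 and 9.30 in the Runx1 line, 4.55 apart on the log2 scale (SE 0.12, limma adjusted p = 2.68e-10). The vector level lay near the median gene, at 4.50 on both vector arrays, and within the levels of markers of other cell types, which reached 5.04. The values carry no detection call, so for genes this dim in 1 group it is not known whether that level stands above background, and their differences are given on the log2 scale as deposited, with no fold. On the other 11 arrays the same probe set read between 4.45 and 4.88. Of the other 5 Runx1 probe sets, 1 rose from a mean of 4.29 to 7.23, 1 was lower, at 4.82 against 4.14 (difference −0.68, adjusted p = 0.0216 over all probe sets), and 3 did not pass. Which probe sets lie within the inserted Runx1 sequence was not examined. Cbfb read 9.40 and 9.52 in vector cells and 9.49 and 9.48 in the Runx1 line (adjusted p = 0.972). Runx3 read 4.54 and 4.35 against 4.39 and 4.26 (adjusted p = 0.901). Of 21 measured genes of the Runx family, their partner and their corepressors, 2 besides Runx1 passed, both lower. They were Hipk2, a kinase that phosphorylates Runx1 (−0.51, adjusted p = 0.0191), and Tle6, a member of the TLE family (−0.47, adjusted p = 0.0167), and each missed the threshold when any 1 of the 4 arrays was left out (adjusted p from 0.0687 to 0.205 for Hipk2 and from 0.0618 to 0.196 for Tle6).

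At a limma adjusted p of 0.05, 309 of 18193 genes (1.70%) passed, 177 higher in the Runx1 line (0.973% of genes) and 132 lower (0.726%). A change of 2-fold or more was reached by 50 of the higher and 21 of the lower genes, and an unadjusted p under 0.05 by 1770 genes. In all 309 genes the values of the Runx1 arrays did not overlap those of the vector arrays, which a call nearly requires with so few arrays. The share of all genes without overlap is not given here, so this adds no support to the calls. When 1 of the 4 arrays was left out, the count fell to 143 without either vector array, 176 without Runx1 replicate 1 and 158 without Runx1 replicate 2. Of the 309 genes, 65 higher and 39 lower ones passed in the full fit and in each of these 4 fits. Against the vector arrays with 4-OHT in place of those without, 511 genes passed (2.81%), 354 of them higher, and 262 of the 309 were among them.

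**Figure D1:**
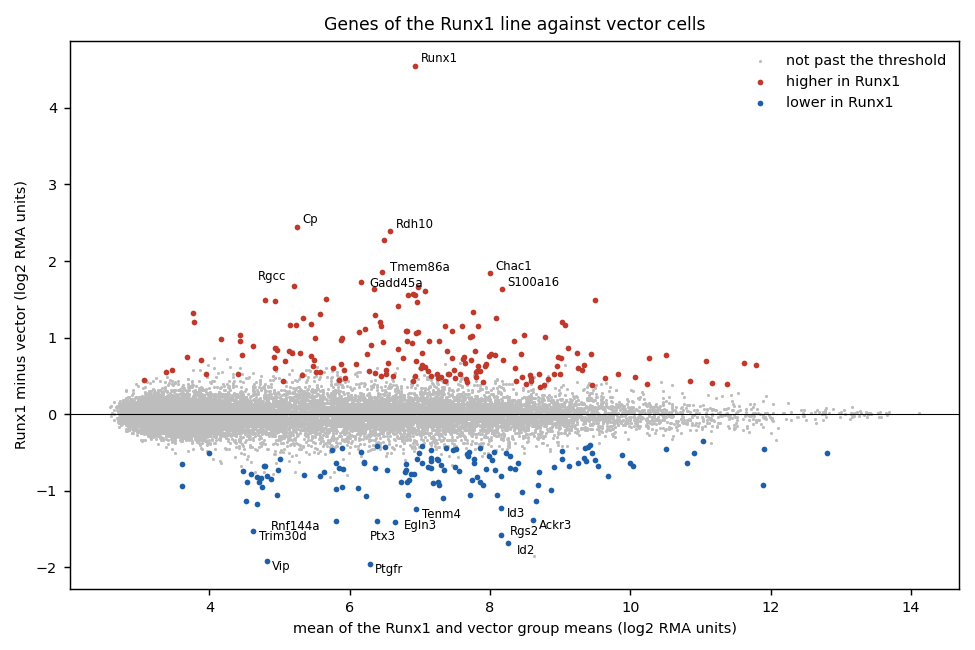
Each point is a gene, with the mean of the Runx1 and vector group means on the x axis and the Runx1 minus vector difference on the y axis, both in log2 RMA units. Red and blue mark the 177 higher and 132 lower genes past the threshold, grey marks the rest, and the names are genes with large changes. Runx1 lies far above all other genes at 4.55.

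After Runx1, Cp had the largest rise among named genes. Cp encodes ceruloplasmin, a copper-carrying ferroxidase that is made mainly in liver. It read 4.14 and 3.91 in vector cells and 6.57 and 6.37 in the Runx1 line, a difference of 2.45 with an SE of 0.17 (limma adjusted p = 6.24e-06) from a vector level below the median gene, and 4 of its 7 other probe sets passed in the same direction. Rdh10, the first enzyme of retinoic acid synthesis from retinol, read 5.56 and 5.20 against 7.76 and 7.79 (difference 2.39, SE 0.11, adjusted p = 3.23e-07). Tmem86a, an enzyme that cleaves the ether lipid lysoplasmalogen, read 5.62 and 5.47 against 7.33 and 7.45 (1.85, SE 0.21, adjusted p = 0.000344). In each of these genes both Runx1 arrays lay more than 1 unit above both vector arrays.

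Rgcc, a regulator of the cell cycle that responds to complement, read 4.68 and 4.06 in vector cells and 6.10 and 6.00 in the Runx1 line (difference 1.68, adjusted p = 0.000600). Its vector arrays lay further apart than those of most genes in this group. Glipr1, a secreted protein of the CAP family, rose by 1.63 and S100a16, a calcium-binding protein, also by 1.63 (both adjusted p = 3.63e-06, SE 0.11). Sertad4 rose by 1.61 and Ccbe1, a secreted protein needed for the growth of lymphatic vessels, by 1.55. Gadd45a, which is induced by DNA damage and other stress, read 5.37 and 5.22 against 7.05 and 6.99. Its difference of 1.73 had an SE of 0.37, and its adjusted p of 0.0329 rose to between 0.163 and 0.238 when any 1 of the 4 arrays was left out.

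Falls were smaller. Ptgfr, the receptor for prostaglandin F2 alpha, read 7.23 and 7.28 in vector cells and 5.20 and 5.41 in the Runx1 line (difference −1.95, SE 0.14, limma adjusted p = 5.38e-06), and 3 of its 4 other probe sets also passed and were lower. Vip, a neuropeptide that raises cyclic AMP, read 5.88 and 5.67 against 3.87 and 3.85 (−1.92, SE 0.16, adjusted p = 3.64e-05). Id2, an inhibitor of basic helix-loop-helix transcription factors, read 9.11 and 9.07 against 7.45 and 7.37 (−1.68, SE 0.11, adjusted p = 3.25e-06). Rgs2, which shortens signals of Gq-coupled receptors, read 8.91 and 8.98 against 7.43 and 7.31 (−1.57, SE 0.13, adjusted p = 1.99e-05). Both Runx1 arrays lay below both vector arrays by more than 1 unit in each of these 4 genes.

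The next falls were in Trim30d (−1.52), Egln3, an oxygen-sensing prolyl hydroxylase (−1.41), Ptx3, a secreted pattern recognition protein (−1.40), Rnf144a, a ubiquitin ligase (−1.39), and Ackr3, a scavenging receptor for Cxcl12 (−1.38), with limma adjusted p-values between 9.73e-06 and 0.00077. Pxylp1, a xylose phosphatase of proteoglycan synthesis, fell by 1.17, Cdsn, an adhesive protein of the epidermis, by 1.13, and Plpp3, a lipid phosphate phosphatase, by 1.09. Tenm4, a transmembrane teneurin, differed by −1.24 (adjusted p = 0.00355) and missed the threshold with vector replicate 2 left out (adjusted p = 0.0617) or without Runx1 replicate 1 (adjusted p = 0.0567). Deptor, an inhibitor of mTOR, differed by −1.13 and missed it without any 1 of the 4 arrays (adjusted p from 0.0576 to 0.144). For Trim30d, Egln3, Ptx3, Rnf144a and Tenm4 no other probe set passed.

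**Figure D2:**
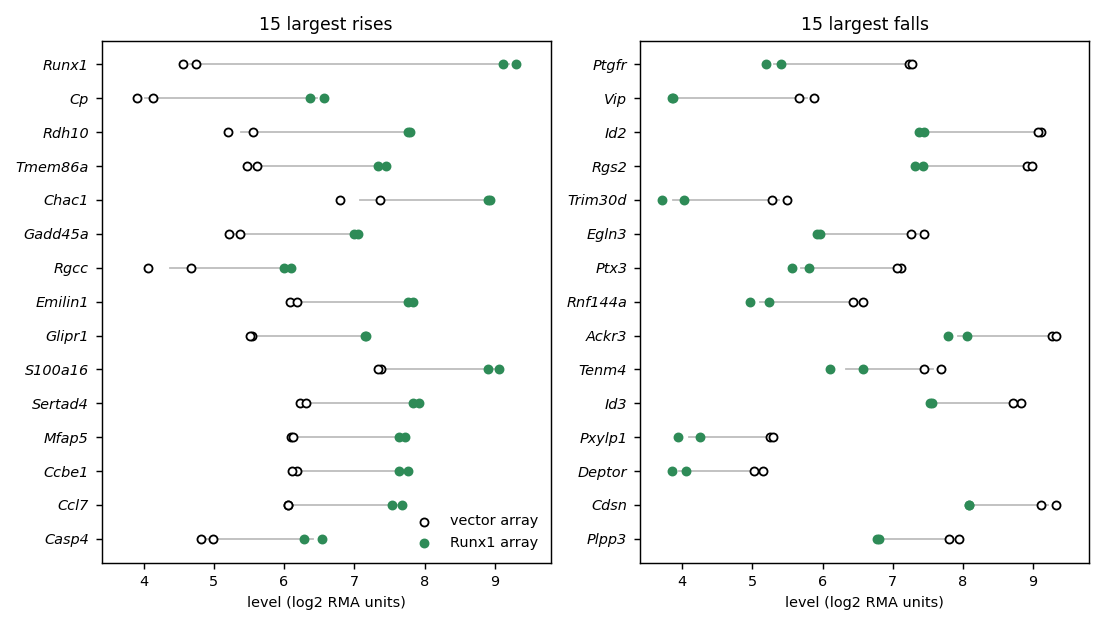
The 15 named genes with the largest rises (left) and the 15 with the largest falls (right), each array a point at its level in log2 RMA units (open, vector; filled, Runx1), and a grey line between the group means. Genes were chosen without overlap of arrays, so in every row the filled points lie on 1 side of the open points. Runx1 moved from 4.56 and 4.75 to 9.11 and 9.30.

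Known genes were grouped in 32 lists of pathways and families. Lists and members were chosen with earlier results of these data known, so their shares and ranks are descriptions and not tests. The shares of list members that passed stood against 0.973% of all genes higher and 0.726% lower, and the median difference of all genes was −0.01. The list with the largest share was the amino acid response. Cells short of an amino acid, or under other stress that phosphorylates eIF2 alpha, make more of the transcription factor ATF4, which binds sites called CARE and raises genes of amino acid transport and synthesis together with feedback regulators. Of 36 measured members, 13 were higher in the Runx1 line (36.1%) and 0 lower, and the median difference was 0.38. With 1 array left out, 5 to 9 members passed, and in each of these fits the median lay between 0.33 and 0.39. Chac1, Cth, Ppp1r15a, Nupr1 and Trib3 passed in all 4.

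Chac1, which degrades glutathione, read 7.36 and 6.80 in vector cells and 8.93 and 8.91 in the Runx1 line (difference 1.84, SE 0.23, limma adjusted p = 0.000869). Cth, the last enzyme of cysteine synthesis from methionine, read 4.07 and 4.01 against 5.38 and 5.69 (1.49, SE 0.17, adjusted p = 0.000413). Ppp1r15a, the phosphatase subunit that reverses eIF2 alpha phosphorylation, read 7.11 and 7.07 against 8.35 and 8.49 (1.33, SE 0.16, adjusted p = 0.000561). These 3 genes stood more than 1 unit above the vector arrays on both Runx1 arrays.

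Nupr1, a small stress-induced nuclear protein, read 7.46 and 7.45 against 8.72 and 8.69 (1.25, SE 0.12, limma adjusted p = 9.22e-05). Trib3, a pseudokinase that restrains ATF4, read 7.99 and 7.96 against 9.05 and 8.97 (1.03, SE 0.15, adjusted p = 0.00274), and with the mean of its 2 probe sets the difference was 0.87 (adjusted p = 0.0627). Fgf21, a hormone induced by ATF4, differed by 0.87 (adjusted p = 0.00494) and missed the threshold when vector replicate 1 was dropped (adjusted p = 0.0638) or Runx1 replicate 2 (adjusted p = 0.0699). Atf4 itself read 10.17 and 10.08 against 10.86 and 10.93, a difference of 0.77 (adjusted p = 0.00612), with an adjusted p of 0.0427 to 0.0857 when 1 array was left out, over the threshold without vector replicate 2 or Runx1 replicate 2. The remaining called members were Mthfd2 (0.78), Slc6a9 (0.76), Ddit3 (0.74), Ddit4 (0.64), Slc1a4 (0.55) and Slc7a1 (0.53), which include a folate enzyme, 3 amino acid transporters and 2 stress regulators. Leaving out 1 array gave adjusted p-values up to 0.205, 0.112, 0.252, 0.339, 0.177 and 0.251 for them, in the same order.

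Not all of the response was higher. Asns, asparagine synthetase, differed by 0.21, Psat1 by 0.00, Phgdh by −0.07, Slc7a11 by −0.12 and Atf3 by −0.23, with limma adjusted p-values from 0.492 to 0.999. Of 19 aminoacyl-tRNA synthetases, 0 passed in limma, 4 had an unadjusted p under 0.05, all of them higher, and the median was 0.09. Of 28 chaperones and other genes of the unfolded protein response in the endoplasmic reticulum, only Herpud1 (0.78) and Ern1 (0.66) passed in the full fit, both missed the threshold without any 1 of the 4 arrays (adjusted p from 0.0519 to 0.161 and from 0.0518 to 0.166), and the median was −0.06.

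Promoters of the amino acid list were searched because CARE sites are the known binding sites of ATF4. In the RefSeq table for GRCm38.p6, which gives 250 bases before and 50 after each gene start, a CARE-like motif (TGATGNAA, either strand) was in 3.97% of all 32851 promoters and in 2.73% of those of the genes tested. It was in 10 of 39 promoters of list members (25.6%) and in 5 of 15 promoters of the members called higher (33.3%). The list was drawn up around ATF4, so a larger share than among all genes follows from that choice and is not a result of these data. Among promoters of all genes called higher 13 of 175 held it (7.43%), among those of genes called lower 4.44%, and among those of genes not called 2.67%. The 13 include the 5 of list members, and a match describes the letters only. The 5 matched promoters belong to Chac1 (chr2:119350992-119351291, plus strand), Trib3 (chr2:152344011-152344310, minus strand), Nupr1 (chr7:126625421-126625720, minus strand), Fgf21 (chr7:45615441-45615740, minus strand) and Slc1a4 (chr11:20332664-20332963, minus strand), are shown to let the matches be compared, and have the motif in capitals. Counted from the start base as 0, the first capital is at −193 in Chac1, 14 in Trib3, −110 in Nupr1, −139 in Fgf21 and −4 in Slc1a4, and all 5 matches are on the strand opposite to that printed.
Chac1: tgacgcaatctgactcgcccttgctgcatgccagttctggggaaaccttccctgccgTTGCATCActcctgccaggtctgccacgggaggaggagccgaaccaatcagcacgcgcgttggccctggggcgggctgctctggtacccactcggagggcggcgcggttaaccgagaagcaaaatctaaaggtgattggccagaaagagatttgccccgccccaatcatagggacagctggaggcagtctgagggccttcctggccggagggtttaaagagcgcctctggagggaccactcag
Trib3: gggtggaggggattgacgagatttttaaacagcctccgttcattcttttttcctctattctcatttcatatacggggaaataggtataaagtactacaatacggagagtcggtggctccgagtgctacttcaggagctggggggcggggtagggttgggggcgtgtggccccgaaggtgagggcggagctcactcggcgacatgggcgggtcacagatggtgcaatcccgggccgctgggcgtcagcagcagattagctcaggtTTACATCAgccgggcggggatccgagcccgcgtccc
Nupr1: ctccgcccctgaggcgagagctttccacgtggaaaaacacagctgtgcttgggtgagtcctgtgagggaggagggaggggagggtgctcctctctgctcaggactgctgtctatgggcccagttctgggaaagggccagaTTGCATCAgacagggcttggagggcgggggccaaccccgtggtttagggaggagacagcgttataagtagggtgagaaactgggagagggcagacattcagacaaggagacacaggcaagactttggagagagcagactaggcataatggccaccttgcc
Fgf21: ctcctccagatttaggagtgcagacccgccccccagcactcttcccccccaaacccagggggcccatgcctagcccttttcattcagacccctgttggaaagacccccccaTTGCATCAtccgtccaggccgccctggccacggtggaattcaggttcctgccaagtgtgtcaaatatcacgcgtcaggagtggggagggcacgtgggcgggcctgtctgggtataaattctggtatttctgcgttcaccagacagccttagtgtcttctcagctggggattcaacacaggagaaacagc
Slc1a4: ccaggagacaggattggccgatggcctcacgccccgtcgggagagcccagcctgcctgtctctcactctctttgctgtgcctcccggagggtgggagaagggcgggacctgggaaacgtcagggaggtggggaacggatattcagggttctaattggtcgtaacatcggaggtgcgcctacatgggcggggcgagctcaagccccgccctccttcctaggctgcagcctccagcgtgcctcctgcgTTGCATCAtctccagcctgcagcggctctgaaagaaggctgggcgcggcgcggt

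The list was also compared directly between the stable lines, with the same Runx1 arrays in each comparison. By limma 14 of the 36 members were higher in the Runx1 line than in the Runx2 line and 20 were higher than in the Runx3 line, with 0 lower in either, where 0.989% and 4.13% of all genes were higher and 0.511% and 2.39% lower. The median differences over the list were 0.42 and 0.55, against 0.01 and −0.01 over all genes. Several members were lower in the Runx3 line than in vector cells, among them Chac1 (−0.85), Trib3 (−1.10), Atf5 (−0.77) and Aldh1l2 (−0.86), while Slc6a9 (0.75) and Ddit4 (0.62) were higher. Of the 20, Atf5 (−0.22), Psat1 (0.00) and Aldh1l2 (−0.29) did not lie above vector cells in the Runx1 line. In the human RUNX1 line, which has 1 array and is assumed to vary like the others, 9 members were lower than in the Runx1 line and 0 were higher, where 2.79% of all genes were lower and 1.20% higher. Cth read 4.06 on that array and Trib3 7.98, beside 4.07 and 4.01 and 7.99 and 7.96 in vector cells. Other members called in the Runx1 line lay above vector cells on that array, among them Ppp1r15a (1.11), Slc6a9 (0.66), Nupr1 (0.57) and Slc1a4 (0.51). Some members not called in the Runx1 line lay below vector cells there, among them Aldh1l2 (−1.32) and Atf5 (−0.64). Chac1 read 8.54 and 8.40 in uninduced RUNX1-ER cells, 1.39 above vector without passing (adjusted p = 0.063), and 7.45 and 7.95 after induction.

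**Figure D3:**
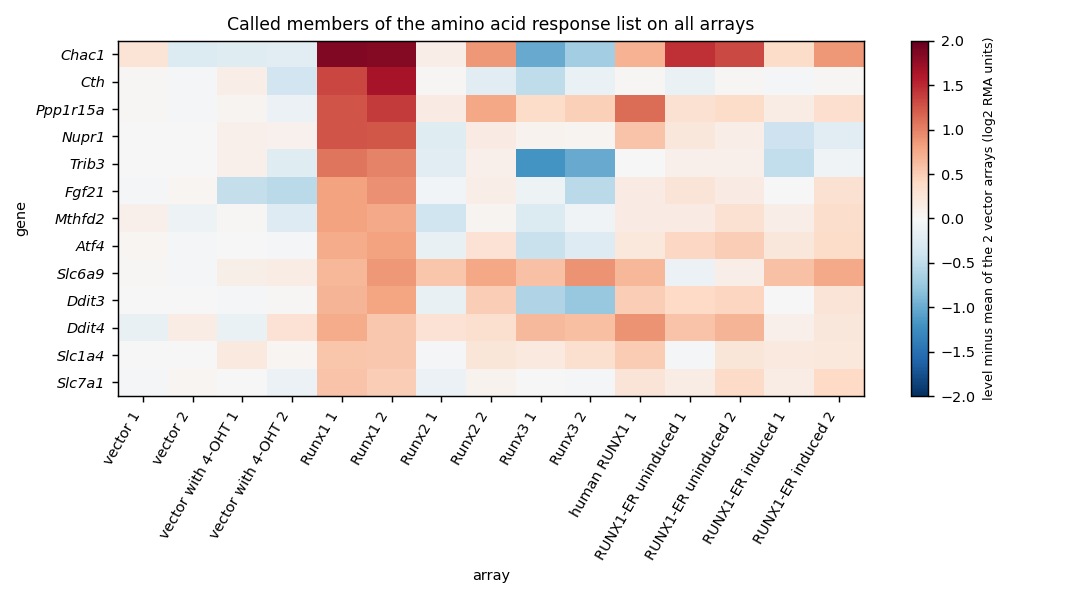
The 13 called members of the amino acid response list (rows) on all 15 arrays (columns), coloured by the level minus the mean of the vector arrays, in log2 RMA units. The Runx1 columns are red in every row, while the Runx3 columns are blue for Chac1, Trib3 and Ddit3, and Slc6a9 and Ddit4 are red in several lines.

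Iron and copper genes passed in 4 of 25 cases. Besides Cp, Slc40a1, the iron exporter ferroportin, read 4.42 and 3.97 in vector cells and 5.73 and 5.61 in the Runx1 line (difference 1.48, SE 0.18, limma adjusted p = 0.000600). Ceruloplasmin oxidises the iron that ferroportin releases. Tfrc, the transferrin receptor that brings iron in, read 7.40 and 7.30 against 6.68 and 5.91 (−1.05, adjusted p = 0.0157). Its Runx1 arrays lay 0.77 apart, and it missed the threshold with vector replicate 1 left out (adjusted p = 0.139), vector replicate 2 (0.107) or Runx1 replicate 2 (0.137). Steap1 differed by 0.51 (adjusted p = 0.028) and missed the threshold without any 1 array (adjusted p from 0.0618 to 0.299). The list median was 0.02.

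Lists on cell death were drawn up because the title names survival, and the first holds caspases and inflammasome genes, many of them inflammatory. Casp4, an inflammatory caspase that senses lipopolysaccharide, read 4.99 and 4.82 in vector cells and 6.28 and 6.54 in the Runx1 line (difference 1.51, SE 0.19, limma adjusted p = 0.00077). Casp12, a neighbouring member of the same subfamily, read 7.09 and 6.97 against 8.11 and 8.24 (1.15, SE 0.14, adjusted p = 0.000625). Il18, a cytokine that inflammatory caspases activate, differed by 0.43 and missed the threshold without any 1 array (adjusted p from 0.0992 to 0.155). These were the 3 that passed of 18 caspase and inflammasome genes. Of 34 members of the Bcl2 and death receptor families 0 passed in limma, with 7 at an unadjusted p under 0.05 (5 higher), and of 22 p53 targets 0 passed, with 3 at an unadjusted p under 0.05. Gadd45a, whose values are given above and which p53 also induces, was not on that list.

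Adhesion is also in the title. Of 43 integrin and focal adhesion genes 3 were higher (6.98%, against 0.973% of all genes) and 0 lower, with a median of 0.05. Itgbl1, a secreted protein related to beta integrins, read 5.82 and 5.82 in vector cells and 7.05 and 7.01 in the Runx1 line (1.20, SE 0.10, limma adjusted p = 3.64e-05). Itgb5, integrin beta 5, differed by 0.71 and missed the threshold with vector replicate 1 left out (adjusted p = 0.0711), vector replicate 2 (0.0598) or Runx1 replicate 2 (0.101). Sdc1, a heparan sulphate proteoglycan, differed by 0.44 and missed it without any 1 array (adjusted p from 0.152 to 0.186). Of 51 cadherins and immunoglobulin adhesion molecules 7.84% passed, against 1.70% of all genes. Among them Ncam1 rose by 0.95 (7.81 and 7.92 against 8.99 and 8.64, adjusted p = 0.00219). Cdon (0.64), Alcam (−0.73) and Cd34 (−0.44) passed in the full fit and missed it with 1 array left out, Cdon (adjusted p from 0.0707 to 0.159) and Cd34 (0.115 to 0.365) with any array and Alcam with vector replicate 1 (0.38), Runx1 replicate 1 (0.258) or Runx1 replicate 2 (0.136).

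In the extracellular matrix, of 56 elastic fibre, matricellular and proteoglycan genes 6 were higher and 3 lower, and 4 and 1 of these passed without any 1 array. Emilin1, a glycoprotein of elastic fibres, read 6.09 and 6.19 in vector cells and 7.76 and 7.84 in the Runx1 line (1.66, SE 0.15, limma adjusted p = 6.2e-05). Mfap5, a microfibril protein, read 6.10 and 6.12 against 7.72 and 7.63 (1.57, SE 0.10, adjusted p = 3.63e-06), and its other probe set changed by 0.35 (adjusted p = 0.252 over all probe sets). Loxl3, a lysyl oxidase that crosslinks collagen and elastin, rose by 1.15, and Ccn2, connective tissue growth factor, rose by 1.07. Vcan, the large proteoglycan versican, read 7.69 and 7.79 against 6.67 and 6.95 (−0.93, adjusted p = 0.00121). Only 1 of its 7 other probe sets passed, and the mean of all its probe sets differed by −0.17 (adjusted p = 0.461).

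Among 39 metalloproteinases and inhibitors, Mmp2, a gelatinase, rose by 0.79 (9.09 and 9.0 against 9.77 and 9.91, limma adjusted p = 0.000344) and Adam19, a membrane metalloproteinase, by 0.72 (adjusted p = 0.000615). Timp3, an inhibitor of both kinds of enzyme, fell by 0.64 (8.72 and 8.72 against 8.03 and 8.12, adjusted p = 0.0017), and its 3 other probe sets were lower without passing. Adamts5, a protease of proteoglycans, differed by −0.53 (adjusted p = 0.00419) and missed the threshold with vector replicate 2 left out (adjusted p = 0.056). Adamts4 differed by 0.69 but by 0.20 against vector cells with 4-OHT (adjusted p = 0.57). Of 29 collagen chains only Col4a5 passed (−0.48, adjusted p = 0.0123), and it missed the threshold without any 1 array (adjusted p from 0.0697 to 0.14).

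Secreted signals and receptors came next. Ccl7 and Ccl2, chemokines that attract monocytes, read 6.06 and 6.05 against 7.53 and 7.68 (1.55, limma adjusted p = 0.000103) and 6.71 and 6.87 against 7.90 and 7.98 (1.15, adjusted p = 0.000256). Masp1, a serine protease of the lectin pathway of complement, read 6.29 and 6.15 against 7.69 and 7.68 (1.46, adjusted p = 3.63e-06) and was the only one of 19 complement genes that passed. Of 66 growth factors and receptor tyrosine kinases 9 were higher and 4 lower, and 3 and 0 of these passed without any 1 array. Pdgfrb, the receptor for platelet-derived growth factor B, read 7.32 and 7.20 against 8.43 and 8.39, and Angptl4, a secreted inhibitor of lipoprotein lipase, read 6.72 and 7.11 against 7.97 and 8.05 (1.09, adjusted p = 0.000625). Igfbp6, which binds insulin-like growth factor 2, read 11.47 and 11.47 against 12.07 and 12.14 (0.64, adjusted p = 0.000829).

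In signalling through G proteins and cyclic nucleotides, of 67 measured genes 8 were lower and 2 higher, and 6 of the 8 passed without any 1 array, namely Ptgfr, Vip, Rgs2, Pde8b, Ramp3 and Pde4b. Pde8b and Pde4b, which break down cyclic AMP, read 7.37 and 7.14 against 6.40 and 6.32 (−0.89, limma adjusted p = 0.00182) and 7.36 and 7.24 against 6.59 and 6.44 (−0.78, adjusted p = 0.000846). Ramp3, which gives the calcitonin receptor-like receptor its ligand preference, read 7.36 and 7.21 against 6.47 and 6.37 (−0.86, adjusted p = 0.00207). Ptger4, a receptor for prostaglandin E2, differed by −1.07 (6.99 and 6.55 against 5.89 and 5.52, adjusted p = 0.00615) and missed the threshold with vector replicate 1 left out (adjusted p = 0.0961) or Runx1 replicate 2 (0.103). Most of the list moved little, with a median of −0.06.

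In the TGF-beta and BMP pathway 1 of 56 genes was higher and 3 were lower, and all 4 passed without any 1 array. Tgfbr2, the ligand-binding TGF-beta receptor, read 8.52 and 8.46 in vector cells and 9.58 and 9.73 in the Runx1 line (1.16, SE 0.10, limma adjusted p = 5.57e-05). The 3 lower genes were Id1, Id2 and Id3, which are direct targets of BMP signalling. Id3 read 8.82 and 8.71 against 7.56 and 7.53 (−1.22, adjusted p = 0.000758), and Id1 read 8.99 and 8.96 against 7.98 and 7.92 (−1.02, adjusted p = 0.000567). The list median was −0.00.

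Among regulators of other lineages, Cebpd, a transcription factor of early fat cell formation, read 9.53 and 9.22 against 8.38 and 8.39 (−0.99, limma adjusted p = 0.000713), and Dlk1, a surface inhibitor of fat cell formation, read 12.48 and 12.21 against 11.37 and 11.48 (−0.92, adjusted p = 0.000338). Sox9, a cartilage regulator, differed by 0.57 and missed the threshold without any 1 array (adjusted p from 0.119 to 0.196). Of 37 known targets of Runx factors in blood cells 0 passed in limma, 4 had an unadjusted p under 0.05, all lower, and the median was −0.05. Of 29 retinoid genes only Rdh10 passed, and of 52 Wnt pathway genes only Tcf7l1, a repressor that Wnt signals relieve (−0.49, adjusted p = 0.00764), which missed the threshold without either vector array or Runx1 replicate 1 (adjusted p from 0.0632 to 0.084).

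Lipid signalling genes moved both ways. Ugcg, which makes glucosylceramide, read 6.14 and 5.83 against 7.31 and 7.48 (1.41, SE 0.16, limma adjusted p = 0.000393). Plpp1 and Plpp3, phosphatases of the same lipid family, went opposite ways, with 8.62 and 8.59 against 9.36 and 9.34 for Plpp1 (0.75, adjusted p = 0.000256) and 7.80 and 7.95 against 6.77 and 6.80 for Plpp3 (−1.09, adjusted p = 0.00024). Sgpp1, which removes the phosphate of sphingosine 1-phosphate, fell by 0.73 (adjusted p = 0.00104). In all, 3 of 45 sphingolipid genes were higher and 3 lower.

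Several lists leaned 1 way with few firm members. Of 39 contractile, actin and SRF or YAP target genes 6 were higher and 0 lower, 16 had an unadjusted p under 0.05, all higher, and the median was 0.21 (0.13 to 0.16 with 1 array left out), but only Ccn2 passed without any 1 array. Smooth muscle actin Acta2 read 10.65 and 10.60 against 11.02 and 11.12 (0.44, limma adjusted p = 0.0191, and 0.0674 to 0.185 with 1 array left out). Of 49 interferon-stimulated genes 6 were higher and 0 lower, and Ifitm3, which blocks viral entry (0.69, adjusted p = 0.000787), and Isg20, an exonuclease (0.67, adjusted p = 0.00289), passed without any 1 array. Of 35 hypoxia and glycolysis genes 4 were lower and 0 higher, but Angptl4, Ddit4 and Vegfa, which hypoxia also induces, were counted in other lists and were higher, by 1.09, 0.64 and 0.73. Vegfa (adjusted p = 0.0128) did not pass with vector replicate 2 left out (0.176), Runx1 replicate 1 (0.122) or Runx1 replicate 2 (0.0694), and Ddit4 without vector replicate 1 (0.339) or either Runx1 array (0.249 and 0.0922). Egln3 passed in each fit, while Eno2 (−0.90), Mxi1 (−0.52) and the glucose transporter Slc2a1 (−0.51) missed the threshold without any 1 array (adjusted p from 0.103 to 0.291).

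Guidance genes passed in 6 of 50 cases, 3 each way. Sema5a, a semaphorin, read 3.16 and 3.18 against 4.20 and 4.55 (1.21, limma adjusted p = 0.00136), and Unc5b, a netrin receptor, read 4.87 and 4.86 against 5.83 and 6.25 (1.18, adjusted p = 0.00102), but none of the other probe sets of either gene passed. Dusp4, a phosphatase of ERK, rose by 0.98 (3.79 and 3.56 against 4.65 and 4.65, adjusted p = 0.00123), while Errfi1, an inhibitor of EGF receptors, differed by −0.92 and missed the threshold with vector replicate 1 left out (adjusted p = 0.243), Runx1 replicate 1 (0.115) or Runx1 replicate 2 (0.157). Of 31 genes of glutathione and oxidant defence 2 were higher and 2 lower, and none of these 4 passed without each array in turn. Nr4a1, an immediate early nuclear receptor, had a difference of −1.85 without passing (adjusted p = 0.189). Its vector arrays read 10.39 and 8.71, far apart, and the Runx1 arrays 7.77 and 7.63.

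Of 58 genes of S phase and mitosis 3.45% were higher, against 0.973% of all genes, and 0 lower. These were Cks2 (0.49) and Tpx2 (0.40), which passed in the full fit and missed the threshold without any 1 array (limma adjusted p from 0.0522 to 0.263). Of 16 D cyclins and CDK inhibitors 0 passed, with 3 at an unadjusted p under 0.05, and of 33 genes of cholesterol and fatty acid synthesis 0 passed, with 8 at an unadjusted p under 0.05, 7 of them higher (median 0.15).

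**Figure D4:**
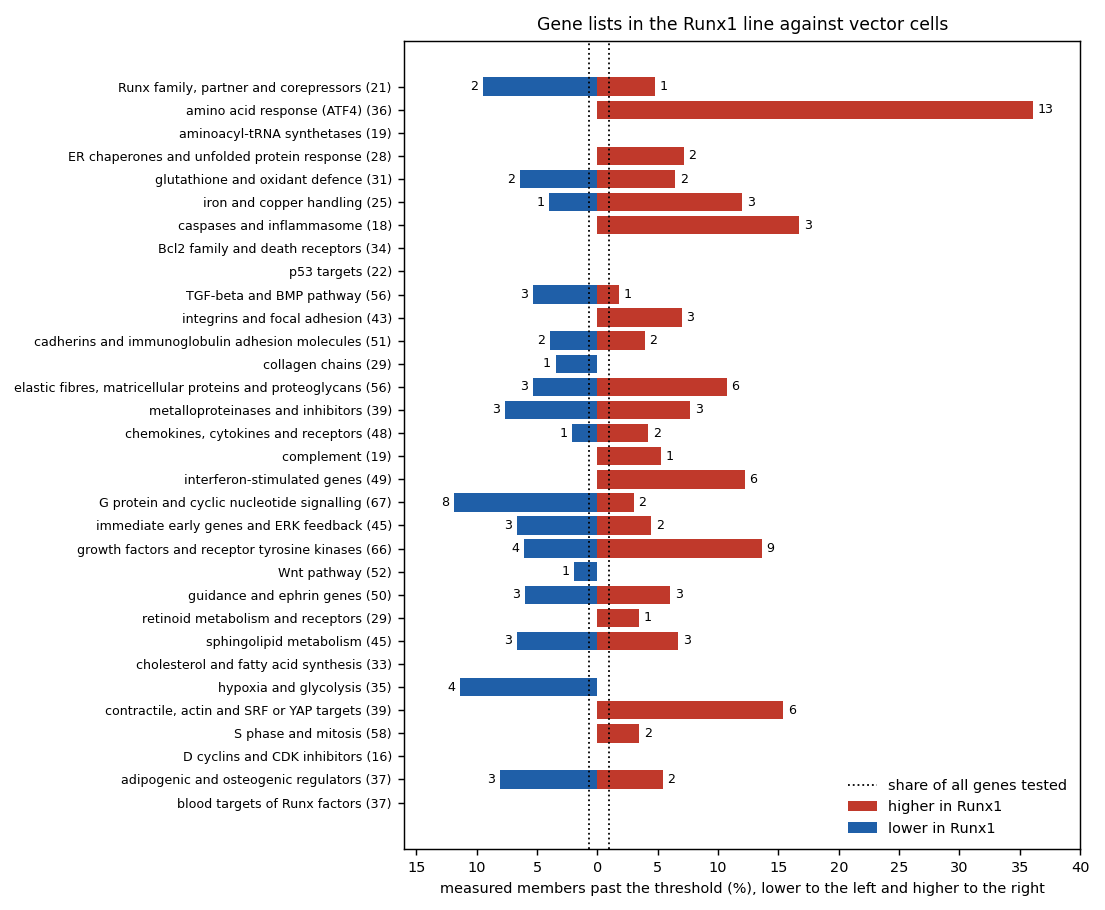
For each of the 32 lists, with the number of measured members in brackets, bars give the percentage of members past the threshold that were higher (red, to the right) or lower (blue, to the left) in the Runx1 line, with counts at the bar ends, and dotted lines give the shares of all genes tested, 0.973% and 0.726%. The amino acid response has the longest bar on the right with 13 of 36. On the left, G protein and cyclic nucleotide signalling (8 of 67, 11.9%) and hypoxia and glycolysis (4 of 35, 11.4%) have bars of similar length. Lists were chosen with earlier results of these data known.

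Runx proteins bind the core TGTGGT or TGCGGT, and promoters were searched for it on both strands. It was in 22.4% of all RefSeq promoters and 21.1% of those of the genes tested, in 34 of 175 promoters of higher genes (19.4%) and in 26 of 135 promoters of lower genes (19.3%), against 21.1% of promoters of genes not called. The shares within these 300 bases were slightly lower for both sets of called genes than for the rest. Emilin1 (chr5:30913536-30913835, plus strand, first capital at 25) and Rgs2 (chr1:144004100-144004399, minus strand, first capital at 7) are printed as a higher and a lower gene with a match just after the start, and the core is in capitals.
Emilin1: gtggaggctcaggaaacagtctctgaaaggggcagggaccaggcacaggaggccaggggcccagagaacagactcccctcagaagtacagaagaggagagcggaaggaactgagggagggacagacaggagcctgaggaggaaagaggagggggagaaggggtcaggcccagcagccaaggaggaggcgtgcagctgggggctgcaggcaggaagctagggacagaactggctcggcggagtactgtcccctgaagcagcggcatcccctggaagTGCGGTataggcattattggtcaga
Rgs2: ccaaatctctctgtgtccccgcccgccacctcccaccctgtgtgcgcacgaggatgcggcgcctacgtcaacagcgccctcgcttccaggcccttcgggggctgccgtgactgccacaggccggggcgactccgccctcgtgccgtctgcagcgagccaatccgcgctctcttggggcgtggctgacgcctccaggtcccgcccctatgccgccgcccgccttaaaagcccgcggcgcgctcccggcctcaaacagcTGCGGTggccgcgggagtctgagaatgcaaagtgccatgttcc

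Genes were then sought that separated the Runx1 line from vector cells and from both other mouse lines. Past the threshold with the same sign in Runx1 against vector, against Runx2 and against Runx3, comparisons that share the Runx1 arrays, were 39 higher and 6 lower genes. Of these 45 genes 43 have a gene name, and 12 higher and 0 lower ones passed all 3 comparisons in each of 8 fits that left out 1 array of the 4 groups. Cp read 4.20 and 4.15 in the Runx2 line and 4.13 and 4.00 in the Runx3 line, close to vector cells, and lay 2.30 and 2.40 higher in the Runx1 line (limma adjusted p = 1.9e-05 and 3.75e-06). Itgbl1 lay 1.46 and 1.30 above these lines, Cth 1.59 and 1.82, Nupr1 1.29 and 1.18, Trib3 1.09 and 2.13, and Dusp4 1.05 and 1.07, with adjusted p-values between 3.35e-06 and 0.00309. These genes and Runx1 were among the 12, and the others were Tmem218, Gpr149, S100a16, Tmsb4x and Fah. Chac1 lay 1.34 and 2.69 above, and did not keep all 3 calls without either Runx1 array or without Runx2 replicate 1. Among the 12, S100a16 also rose over vector with Runx2 (0.48, limma adjusted p = 0.0312) and with Runx3 (0.99, adjusted p = 5.27e-05), less than its 1.63 with Runx1. Fah also rose with Runx3 (0.46, adjusted p = 0.00731), less than its 1.02 with Runx1. Trib3 (−1.10), Tmsb4x (−0.97) and Gpr149 (−0.41) were lower than vector with Runx3.

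The 6 lower genes were Deptor, Ptger4, Slit3, a guidance ligand, Tcf7l1, Gpd1l, a glycerol phosphate dehydrogenase, and Tle6. Deptor lay 1.17 and 1.73 log2 units below the Runx2 and Runx3 lines and Ptger4 0.96 and 1.94 below. Their arrays in the Runx1 line (4.05 and 3.86 for Deptor, 5.89 and 5.52 for Ptger4) lay below every array of these 2 lines. None of the 6 was kept when each of the 8 arrays was left out in turn: over the 8 fits Tcf7l1 was kept in 5, Ptger4 in 4, Deptor and Slit3 in 3, Gpd1l in 2 and Tle6 in 1.

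The single array of human RUNX1 in the same vector gives a value for each gene but no spread of its own. Under the assumption above, that it varies like the replicated groups, 726 genes passed between it and the Runx1 line (3.99%). Cp read 6.67 on that array, beside 6.57 and 6.37 in the mouse Runx1 line (difference 0.20, limma adjusted p = 0.697). Tmem218 and Fah differed by −0.00 and −0.01. Cth (−1.48, adjusted p = 0.00295), Trib3 (−1.03, adjusted p = 0.0114) and Glipr1 (−2.52, adjusted p = 5.01e-07) were lower on the human RUNX1 array under that assumption, and Glipr1, at 4.64, also lay below both vector arrays, which read 5.54 and 5.52. A single array cannot separate the protein from the culture.

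RUNX1-ER gave a set of arrays that shares none with the Runx1 line or its vector control. Of the 177 genes higher in the Runx1 line, 63 (35.6%) were also higher in induced RUNX1-ER cells than in vector cells with 4-OHT, which are 11.9% of the 528 genes higher there (2.90% of all genes), and 3 were lower. Of the 132 lower genes, 49 (37.1%) were also lower there, 21.4% of the 229 lower there (1.26% of all), and 9 were higher. Against uninduced cells of the same line, 39 of the 177 (22.0%, and 21.3% of 183 higher there, 1.01% of all) and 49 of the 132 (37.1%, and 29.5% of 166 lower there, 0.912% of all) moved the same way, with 2 and 8 the other way. Both RUNX1-ER comparisons, which share the induced arrays, held 38 higher and 36 lower genes of the Runx1 line. These were 21.5% of the 177 and 27.3% of the 132. They made up 24.8% of the 153 genes higher in both comparisons and 37.5% of the 96 lower in both. With 1 array of the Runx1 comparison left out, the 112 genes shared with the first became 56 to 67 and the 88 shared with the second 45 to 54.

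Rdh10 rose by 2.39 in the Runx1 line, by 3.18 in induced RUNX1-ER cells against vector and by 2.23 on induction. Mfap5 rose by 1.57, 2.02 and 1.76, Emilin1 by 1.66, 1.65 and 1.76, and Ccl2 by 1.15, 1.79 and 1.82 in the same order. Id2 fell by 1.68, 1.34 and 0.87, and Rgs2 fell by 1.57, 1.62 and 0.97. Cp changed by 0.03 and −0.20 in the 2 RUNX1-ER comparisons (limma adjusted p = 0.958 and 0.759) and Casp4 by −0.18 and 0.00 (0.711 and 1.00). Of the 36 amino acid response genes 2 were higher in induced RUNX1-ER cells than in vector cells with 4-OHT, Fgf21 (0.66) and Slc6a9 (0.54), and 1 was higher on induction, Slc6a9 (0.66). Fgf21 changed by −0.05 on induction (adjusted p = 0.946). It read 4.50 and 4.81 in induced cells, 4.03 and 3.96 in vector cells with 4-OHT, and 4.46 and 4.54 in vector cells without.

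**Figure D5:**
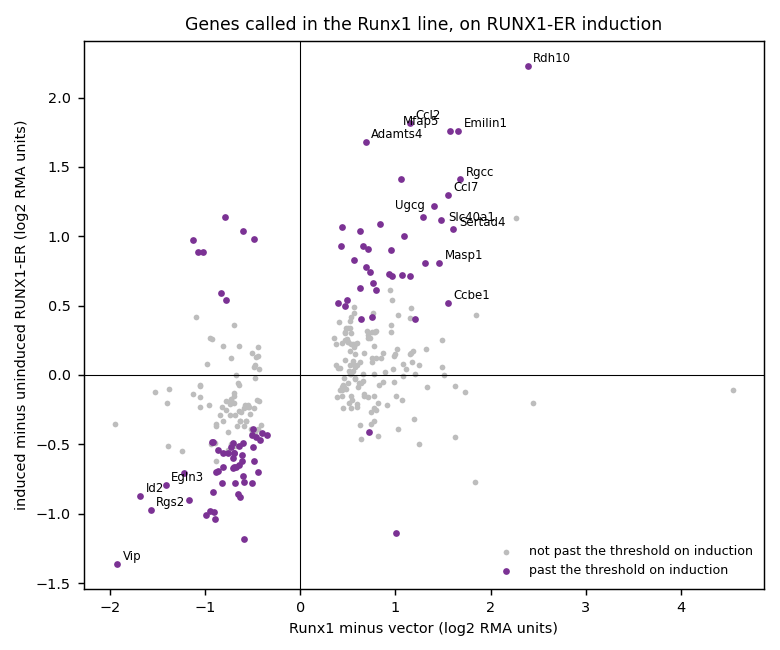
The 309 genes called in the Runx1 line, with the Runx1 minus vector difference on the x axis and the induced minus uninduced RUNX1-ER difference on the y axis, both in log2 RMA units, and purple for genes past the threshold on induction. Rdh10, Emilin1, Mfap5 and Ccl2 lie at the upper right and Vip, Id2 and Rgs2 at the lower left, while Runx1 itself and Cp lie near 0 on the y axis.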

How the data were processed

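Scans were read with GCOS, and the authors made the deposited log2 values by Robust Multichip Average (RMA: background correction, a common distribution for all arrays, 1 value per probe set) with the Bioconductor module affy in the FunAlyse pipeline, per the labels' protocols. For the versions and the probe-set definition, no statement was found in the labels. The RMA method assumes that most genes do not change and compresses differences of dim genes. Precision is limited by how few arrays there are.

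Of 45101 probe sets, 34958 had 1 gene symbol in the platform annotation, 932 several and 9160 none, and 34754 matched RefSeq by Entrez identifier. The brightest probe set stood for each of 18193 genes. limma 3.58.1 (R 4.3.3; lmFit, eBayes) was fitted over all 15 arrays in 8 groups (7 residual degrees of freedom), with Benjamini-Hochberg adjustment over all genes, including for fits with 1 array left out, where a lone array is assumed to vary like the other groups. Called, passed, rose and fell mean an adjusted p under 0.05.

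Named by rule were the 15 largest rises and falls past the threshold without overlap of arrays, up to 5 called members per list with the largest change, all Runx genes and Cbfb, and the 8 highest and 8 lowest genes called alike against vector, Runx2 and Runx3, without predicted or RIKEN clones. Members and lists were chosen with earlier results of these data known. Outside the rule, and chosen after their values were seen, are Mthfd2, Atf4, Slc6a9, Ddit3, Ddit4, Slc1a4, Slc7a1, Vegfa, Adcy7, Prkg2, Ramp3, Pde4b, the amino acid response genes named as not called, Atf5, Aldh1l2, Igfbp6, Nr4a1, Gpr149, Tmem218, Tmsb4x and Fah. On simulated data for Runx1 against vector (18193 genes) 28 of 67 genes changed by 0.5 were called, 60 of 67 changed by 1, 66 of 66 changed by 2 and 7 of 17993 unchanged. Replicate numbers did not pair the arrays (the correlation of deviations of same-numbered arrays was −0.003 between vector and Runx1). Figures were drawn with matplotlib 3.10.9.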

Additional observations from a re-analysis of the deposited data

Results flagged for a closer look

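Among 149 genes called in the Runx1 line against vector (those named by rule, all called list members and all named genes called alike against vector, Runx2 and Runx3), 12 were found in which the Runx1 line and another mouse Runx line both differed from vector, in opposite directions, and the difference between the lines itself passed limma. The search was made after the values were seen. All lines share the vector arrays. Chac1, the glutathione-degrading enzyme, differed from vector by 1.84 in the Runx1 line and by −0.85 in the Runx3 line, a difference of 2.69 (adjusted p = 1.6e-05). Trib3, the ATF4-restraining pseudokinase, differed by 1.03 and −1.10 in the same lines (2.13, adjusted p = 3.35e-06). Hbegf, a ligand of the EGF receptor, differed by 0.82 and −0.77 (1.59, adjusted p = 3.29e-05), and Snai2, a repressor of cadherin genes, by 0.80 and −0.64 (1.44, adjusted p = 3.25e-05). Ptger4, the prostaglandin E2 receptor, was lower with Runx1 and higher with Runx3, at −1.07 and 0.87 (−1.94, adjusted p = 2.34e-05), as was Gpd1l, at −0.49 and 0.72 (−1.21, adjusted p = 1.93e-05). Tcf7l1 differed by −0.49 with Runx1, by 0.66 with Runx2 (−1.15, adjusted p = 1.47e-05) and by 0.32 with Runx3 (−0.81, adjusted p = 6.42e-05). Ddit3, a stress-induced transcription factor, differed by 0.74 with Runx1 and −0.68 with Runx3 (1.42, adjusted p = 0.000112), and Adcy7, an adenylate cyclase, by 0.45 and −0.86 (1.32, adjusted p = 6.3e-06). Tmsb4x, an actin-binding peptide, differed by 0.60 and −0.97 (1.57, adjusted p = 2.99e-07), and Gpr149, an orphan receptor, by 0.71 and −0.41 (1.11, adjusted p = 3.28e-05). Prkg2, a kinase activated by cyclic GMP, differed by 0.63 with Runx1 and −0.54 with Runx2 (1.16, adjusted p = 0.000141). Against vector, Ddit3, Adcy7, Prkg2, Hbegf, Snai2, Ptger4, Gpd1l and Tcf7l1 missed the threshold in the Runx1 line in at least 1 of the 4 fits with 1 array left out, and Chac1, Trib3, Tmsb4x and Gpr149 passed in all 4. Such fits are not given for the Runx2 and Runx3 lines against vector. In the full fit of the Runx3 line, limma adjusted p was 0.0371 for Chac1, 0.000432 for Trib3, 9.08e-06 for Tmsb4x and 0.0286 for Gpr149.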

How the results depend on the processing

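In the fits with 1 value per gene, no named called gene reversed its direction. With every probe set tested by itself, 1 named gene, Runx1, had another probe set called the opposite way. Of 77 named called genes with other probe sets, 36 had none of these called the same way. Runx1 against vector gave 309 calls, 194 when only its 4 arrays were fitted (182 shared with the 309), 552 with a trended and robust variance (305 shared), 511 against the vector arrays with 4-OHT (262 shared), 531 against all 4 vector arrays (304 shared), and 143 to 176 with 1 array left out. Counts of 288 (mean of the probe sets), 403 (every probe set), 439 (mean above 5) and 317 (arrays centred on their median) stayed within 1.5 times. The share of higher calls was 57.3%, and 69.3% against vector with 4-OHT. With the replicate number as a block, 311 genes passed (294 shared), and of 111 named called genes 5 lost the call; the correlation of same-numbered deviations ran from −0.121 to 0.116 over pairs of groups. With 1 array left out, Runx1 against Runx2 gave 88 to 290 calls (273 in full), against Runx3 641 to 802 (1186), induced RUNX1-ER against vector 287 to 726 (757) and against uninduced 129 to 305 (349). In the last, 183 genes were higher and 166 lower, but 243 and 280 with a mean above 5 and 149 and 156 without uninduced replicate 1, so that the larger side changed. Genes that moved alike in induced RUNX1-ER numbered 112 against vector (190 with the trended and robust variance, 56 to 67 with 1 array left out) and 88 against uninduced cells (154, and 45 to 54). For the 45 genes called alike against vector, Runx2 and Runx3, alternatives were chosen after seeing the data, and gave 68 with a mean above 5 and 19 to 41 with 1 array left out. The causes of these changes were not tested. Of the 111 named called genes, 58 passed without each of the 4 arrays in turn, and 48, 42, 43 and 40 lost the call without vector replicates 1 and 2 and Runx1 replicates 1 and 2. With only the 4 arrays fitted 32 lost it. With the mean of the probe sets 19 lost it, including Hipk2, Ern1, Tfrc, Steap1, Cdon, Adamts5, Acta2, Tpx2, Dcn and Gpd1l, and against vector with 4-OHT 10 did, including Col4a5, Adamts4, Tpx2, Dcn and Gpd1l.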
